A study of Homo sapiens with 40 samples.

Results

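The comparison is between U87 cells that overexpressed WT IRE1 and U87 cells with an empty vector (EV), each treated with tunicamycin, over all genes of an expression array. U87 is an established human glioblastoma line. Tunicamycin blocks N-glycosylation and so loads the endoplasmic reticulum (ER) with misfolded protein; it was given at 0.5 µg/ml for 16 h. The 3 arrays of WT cells and 3 arrays of EV cells on the drug were 6 of 40 arrays in the series, chosen by genotype and treatment in their labels. The others held the same 2 lines without the drug, 4 tumour-derived IRE1 variants (S769F, Q780*, P336L and A414T) and the dominant negative IRE1-DN, each line with and without tunicamycin. Every group had 3 arrays except those of IRE1-DN, which had 2. The EV, WT and variant lines were made with 1 lentiviral vector, in which the CMV promoter drives the insert, in cells that kept their own IRE1 gene (the study's methods do not describe how the IRE1-DN line was made). The study describes mixed populations, while the labels of all 4 variants carry clone numbers and those of EV, WT and IRE1-DN cells carry none. The replicates carry the label biological, but whether each was its own culture is not stated. The p-values and standard errors (SE) therefore rest on spread between samples of a group, pooled for each gene over all 14 groups. Where a gene has a low signal in most groups, this pooled spread can be smaller than that of the 6 arrays compared.

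IRE1 is a kinase and RNase of the ER membrane. On ER stress its RNase cuts XBP1 mRNA, which is then rejoined to encode the transcription factor XBP1s, and it cuts a set of other mRNAs, a process called RIDD (regulated IRE1-dependent decay). XBP1s is known for genes of protein import into the ER, ER-associated degradation and vesicle transport to the Golgi. The other arms of the unfolded protein response run through PERK with ATF4, and through ATF6, which is known for ER chaperones. In glioblastoma cells IRE1 has been linked to chemokine release, invasion and vessel growth.

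Promoter sequence is shown first, for elements known to be bound by factors of the response and for a site known from chemokine genes; most genes of the ER lists hold none of the ER elements. The 250 bases before the start of transcription were read from RefSeq promoters of GRCh38.p14 on both strands. The elements searched were ERSE (CCAAT and CCACG with 9 free bases between them) and ERSE-II (ATTGG and CCACG with 1 free base between them), which are bound by ATF6 and XBP1s, the core of the UPRE bound by XBP1s (TGACGTGG), and an NF-kappaB type site (GGAATTTCC). The CCACG of the ERSE elements overlaps the complement of the UPRE core, and 1 of the HYOU1 matches to ERSE-II overlaps its UPRE core. Of 35116 promoters, 0.074% held ERSE, 0.0513% ERSE-II, 0.612% the UPRE core and 0.413% the NF-kappaB type site. The letters were chosen with these genes known, so a match is a description.

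The UPRE core stands in capitals in 5 genes of ER import, vesicle coats and degradation that were higher in WT cells. Some members with the core did not pass the test and are named with the counts below. SRP19, at chr5:112861154-112861203, plus strand, encodes a subunit of the signal recognition particle. COPB1, at chr11:14499831-14499880, minus strand, encodes a subunit of the COPI coat, and KDELR3, at chr22:38468029-38468078, plus strand, a receptor that returns ER proteins from the Golgi. UBE2J1, at chr6:89352923-89352972, minus strand, encodes a ubiquitin-conjugating enzyme of the ER membrane, and VCP, at chr9:35072786-35072835, minus strand, the ATPase that pulls proteins out of it.
SRP19: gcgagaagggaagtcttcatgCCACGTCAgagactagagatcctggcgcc
COPB1: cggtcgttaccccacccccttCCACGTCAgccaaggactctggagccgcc
KDELR3: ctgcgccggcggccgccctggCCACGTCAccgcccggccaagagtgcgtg
UBE2J1: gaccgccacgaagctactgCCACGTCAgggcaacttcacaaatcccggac
VCP: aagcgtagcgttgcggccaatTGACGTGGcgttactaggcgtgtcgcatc

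The ERSE elements stand in capitals in 4 chaperone genes, the first 3 of which did not pass the test and the last of which did. HSPA5, at chr9:125241376-125241425, minus strand, encodes the ER chaperone BiP. HSP90B1, at chr12:103930200-103930249, plus strand, encodes GRP94, and CALR, at chr19:12938368-12938417, plus strand, encodes calreticulin. SDF2L1, at chr22:21642094-21642143, plus strand, encodes a partner of BiP.
HSPA5: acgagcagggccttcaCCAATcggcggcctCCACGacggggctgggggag
HSP90B1: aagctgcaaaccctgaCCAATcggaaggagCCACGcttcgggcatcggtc
CALR: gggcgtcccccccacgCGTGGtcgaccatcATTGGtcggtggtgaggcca
SDF2L1: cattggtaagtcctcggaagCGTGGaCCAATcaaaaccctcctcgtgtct

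The NF-kappaB type site stands in capitals in the CXC chemokine genes that were tested, which lie together on chromosome 4. The site was in 6 of 7 promoters of that list, or 85.7%. Plus-strand windows were chr4:73740457-73740506 for CXCL8 and chr4:73869294-73869343 for CXCL1. Minus-strand windows were chr4:73998739-73998788 for CXCL5, chr4:74038739-74038788 for CXCL3 and chr4:74099244-74099293 for CXCL2. The windows of CXCL1, CXCL2 and CXCL3 differ in few letters; these genes are close copies, and their probe sets may share signal.
CXCL8: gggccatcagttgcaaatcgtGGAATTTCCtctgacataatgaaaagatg
CXCL1: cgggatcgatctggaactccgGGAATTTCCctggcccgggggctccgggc
CXCL5: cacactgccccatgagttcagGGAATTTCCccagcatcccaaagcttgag
CXCL3: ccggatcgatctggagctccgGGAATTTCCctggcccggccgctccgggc
CXCL2: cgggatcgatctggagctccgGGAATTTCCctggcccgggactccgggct

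WT cells on tunicamycin had more mRNA for the machinery that moves proteins into the ER and on to the Golgi, and for neutrophil-attracting chemokines, interleukin 1 and the proteases MMP1 and MMP3. They had less mRNA for most of the insulin-like growth factor (IGF) system and for part of the reported RIDD substrates, integrins and matrix glycoproteins. Of ER chaperones and disulfide isomerases 7 of 25 were higher and 0 lower at an adjusted p under 0.05. Of the targets of PERK and ATF4 0 of 38 were higher and 0 lower. Of 17191 genes tested, 413 differed between the lines at an adjusted p under 0.05 and at least 2-fold, which is 2.40% of the genes. Of these, 199 were higher in WT cells (1.16%) and 214 lower (1.24%). At an adjusted p under 0.05 with no limit on size, the rule used below to count members of a list, 5.65% of genes were higher and 6.50% lower. The median log2 difference over all genes was -0.03. Levels are log2 signals, so that 1 unit is a 2-fold difference, and each difference is WT minus EV.

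**Figure D1:**
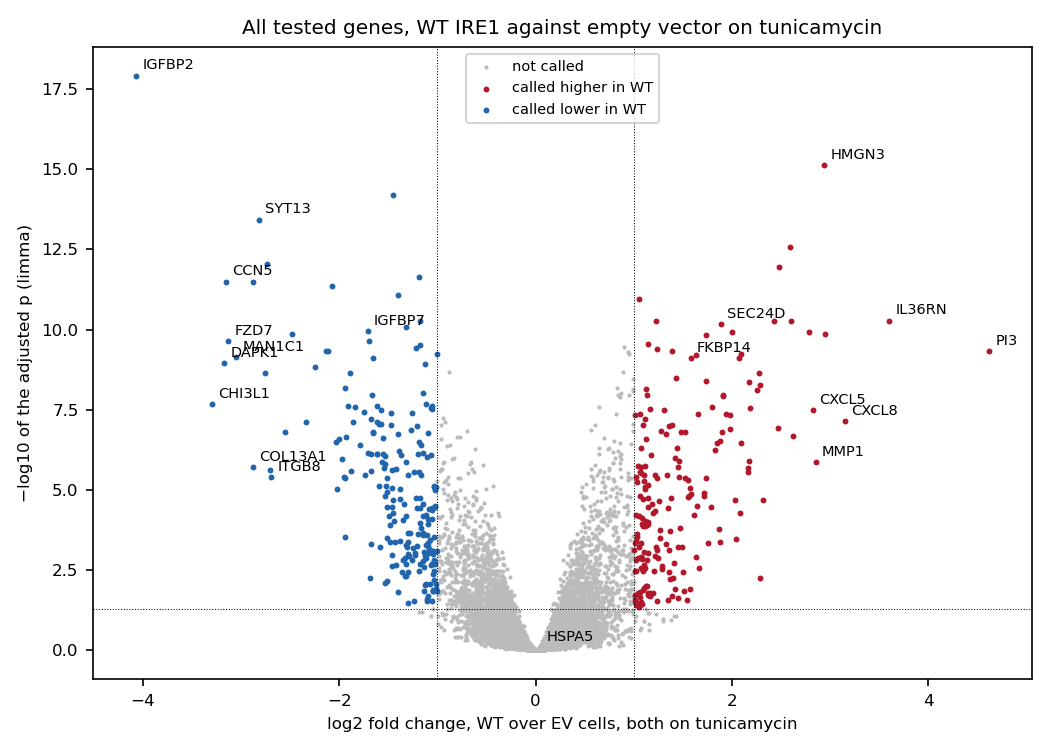
Each point is 1 of 17191 genes, with the log2 difference of WT minus EV cells on tunicamycin across and minus log10 of the adjusted p up. The 199 genes called higher and the 214 called lower stand out on the right and left, with PI3 at 4.62 and IGFBP2 at -4.07 as the extremes.

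The vector was checked first. ERN1, the gene of IRE1, was at 6.97, 7.71 and 7.57 in EV cells and 6.79, 7.38 and 7.00 in WT cells at its brightest probe set. The groups overlapped there, with a log2 difference of -0.36 ± 0.25 (SE, adjusted p = 0.458). A dimmer ERN1 probe set read 4.97, 4.92 and 4.97 in EV cells and 5.75, 5.98 and 6.03 in WT cells, a difference of 0.97 (adjusted p over all probe sets = 0.0211), and another one 0.41 (adjusted p = 0.182). The ERN1 probe sets therefore differed in sign. Where they lie on the mRNA, and whether the vector's insert holds that stretch, was not examined here, so they check the construct only in part.

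XBP1 mRNA was at 10.33, 10.69 and 10.56 in EV cells and 10.29, 10.41 and 10.28 in WT cells, with overlapping groups and a difference of -0.20 ± 0.10 (adjusted p = 0.236). The level of a probe set does not tell cut from uncut XBP1 mRNA. DDIT3, the gene of the stress factor CHOP, read 11.07, 11.21 and 11.54 in EV cells and 10.95, 11.08 and 11.08 in WT cells on the drug. The difference in DDIT3 was -0.24 (adjusted p = 0.692). Without tunicamycin DDIT3 lay between 6.50 and 8.07 in EV cells and between 7.91 and 8.97 in WT cells.

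The genes of the ER translocon and signal peptidase differed in one direction. Of 24 members tested, 17 were higher in WT cells and 0 lower, and the median difference was 0.54. SRPRB, a subunit of the receptor for the signal recognition particle, was at 9.77, 9.69 and 9.79 in EV cells and 10.81, 10.84 and 10.76 in WT cells. The SRPRB groups were far apart, by 1.05 ± 0.07 (SE, adjusted p = 1.12e-11). SSR2, a subunit of the translocon-associated complex, was at 10.23, 10.07 and 10.28 in EV cells and 11.16, 11.21 and 11.18 in WT cells, a difference of 0.99 ± 0.10. SPCS3, a subunit of the signal peptidase that removes signal sequences, was higher by 0.95 ± 0.08, and SEC61A2, a channel subunit, by 0.82 ± 0.19. The other members that rose lay between 0.31 for SEC62 and 0.65 for SSR1. The signal recognition particle subunits SRP19, SRP54, SRP68 and SRP72 were higher by 0.51 to 0.64. These, and the members at the ends of the range, were named after their values were seen.

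Transport from the ER to the Golgi followed the same direction. Of 30 members tested, 16 were higher and 0 lower, with a median of 0.38. SEC24D, which selects cargo for COPII vesicles, was at 8.72, 8.70 and 8.65 in EV cells and 10.58, 10.61 and 10.55 in WT cells. SEC24D differed by 1.89 ± 0.14 (adjusted p = 6.9e-11), the largest difference among these ER lists. The COPII coat subunits SEC31A and SEC23B were higher by 1.06 ± 0.11 and 0.94 ± 0.13, and ARFGAP3, which acts on the COPI coat, by 0.87 ± 0.12. SEC31A read 10.19, 10.34 and 10.13 in EV cells and 11.41, 11.17 and 11.26 in WT cells, so its groups did not overlap.

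ER-associated degradation had 9 members higher and 1 lower of 20, with a median of 0.29. The ubiquitin-conjugating enzymes UBE2J2 and UBE2J1 were higher by 0.80 ± 0.14 and 0.73 ± 0.12, though UBE2J2 was at 0.32 (adjusted p = 0.0685) when its probe sets were averaged. SYVN1, the ubiquitin ligase HRD1, was at 6.63, 6.99 and 7.10 in EV cells and 7.72, 7.50 and 7.63 in WT cells, a difference of 0.71 ± 0.19 (adjusted p = 0.0111). SYVN1 missed the threshold without EV replicate 1 (adjusted p = 0.0831) or WT replicate 1 (adjusted p = 0.0507). OS9, a lectin that hands glycoproteins to that ligase, was the member that was lower, by -0.77 ± 0.16.

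ER chaperones and disulfide isomerases had 7 members higher and 0 lower of 25, and their median was 0.13. FKBP14, a prolyl isomerase of the ER, was at 8.89, 8.56 and 8.50 in EV cells and 10.28, 10.11 and 10.30 in WT cells, a difference of 1.58 ± 0.14 (adjusted p = 7.86e-10). DNAJB9, a co-chaperone of BiP and a known XBP1s target, was at 10.12, 10.59 and 10.40 in EV cells and 11.36, 11.63 and 11.41 in WT cells. The DNAJB9 groups did not overlap, and the difference was 1.10 ± 0.16. PDIA5 was higher by 0.69 ± 0.13 and SDF2L1 by 0.62 ± 0.15. HSPA5 was at 13.23, 13.29 and 13.29 in EV cells and 13.26, 13.34 and 13.35 in WT cells, with a difference of 0.05 ± 0.07 (adjusted p = 0.801). The HSPA5 groups overlapped, at a very bright signal where RMA, the method that gave the signals, shrinks differences.

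Among the sensors and transcription factors of the response, 3 of 17 members were higher and 0 lower. EIF2AK3, the gene of PERK, was at 8.58, 8.81 and 8.74 in EV cells and 9.47, 9.30 and 9.36 in WT cells, a difference of 0.67 ± 0.11. CREB3 and CREB3L2, ER-bound transcription factors related to ATF6, were higher by 0.56 ± 0.09 and 0.48 ± 0.09. The targets of PERK and ATF4, which serve amino acid synthesis and tRNA charging, had 0 members higher and 0 lower of 38 by limma, with a median of 0.08. At an unadjusted p under 0.05, 4 of them were higher and 1 lower, and by the methods' t-test without adjustment 7 and 1. In a fit of the arrays compared with a replicate block, 3 were higher. The cytosolic heat shock genes had 0 of 14 members past the test in each direction.

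The promoter elements shown above were set beside these counts for the 89 members of the 4 ER lists that were tested and have a promoter in the RefSeq table. Of these, 44 were higher in WT cells, or 49.4%. Among members with the UPRE core and no ERSE element, 8 of 12 were higher: SSR3, SEC62, SRP19, COPB2, COPB1, KDELR3, UBE2J1 and VCP. SSR4 at 0.09, SEC24A at 0.18, STX5 at 0.23 and DNAJC10 at 0.03 also held the core and did not pass. Among members with ERSE or ERSE-II, 2 of 11 were higher, SERP1 by 0.60 and SDF2L1 by 0.62. HSPA5 at 0.05, HSP90B1 at -0.03, CALR at -0.20 and HERPUD1 at 0.20 were among the others. Members with no element were higher in 34 of 66 cases, a share close to that over all 89. The medians did not follow the counts. The median difference was 0.33 for the 12 members with the UPRE core and no ERSE element, and 0.09 for those with ERSE or ERSE-II. It was 0.44 for members with no element and 0.39 over all 89. Across all tested genes with a promoter, 19 of 132 with the UPRE core and 799 of 13366 with none of the ER elements were higher. Their medians were 0.01 and -0.03. The promoters of the PERK and ATF4 list held 0 matches to any of the 3 ER elements.

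The list of reported RIDD substrates went the other way. Of 18 members tested, 8 were lower in WT cells and 1 higher, with a median of -0.58. IGFBP7, a secreted member of the IGF-binding family, was at 11.61, 11.19 and 11.61 in EV cells and 9.69, 9.78 and 9.79 in WT cells, a difference of -1.71 ± 0.13 (adjusted p = 1.13e-10). CD59, which shields cells from complement, was at 11.27, 11.25 and 11.09 in EV cells and 10.02, 10.04 and 10.02 in WT cells, a difference of -1.18 ± 0.09. SCARA3, a scavenger receptor, was lower by -1.46 ± 0.33 and DGAT2, an enzyme of triglyceride synthesis, by -0.98 ± 0.28. DGAT2 missed the threshold without EV replicate 1 or 3 or WT replicate 1 or 3, with adjusted p from 0.0501 to 0.0951.

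BLOC1S1, a small subunit of lysosome-related complexes and a widely used readout of RIDD, was at 7.47, 7.29 and 7.20 in EV cells and 6.55, 6.81 and 6.43 in WT cells. The BLOC1S1 difference was -0.72 ± 0.17 (adjusted p = 0.0028), and the gene was named after its value was seen. The other members that fell were COL6A1, HGSNAT and ERGIC3, by -0.89, -0.68 and -0.65. The probe sets of COL6A1 disagreed, and averaged they gave -0.18 (adjusted p = 0.115). SPARC, a matrix protein on the same list, was the member that was higher, by 0.41 ± 0.08, and did not pass in a fit of the arrays compared with a replicate block. PER1 at -0.62 (adjusted p = 0.0508) and PDGFRB at -0.42 (adjusted p = 0.206) did not pass the test.

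**Figure D2:**
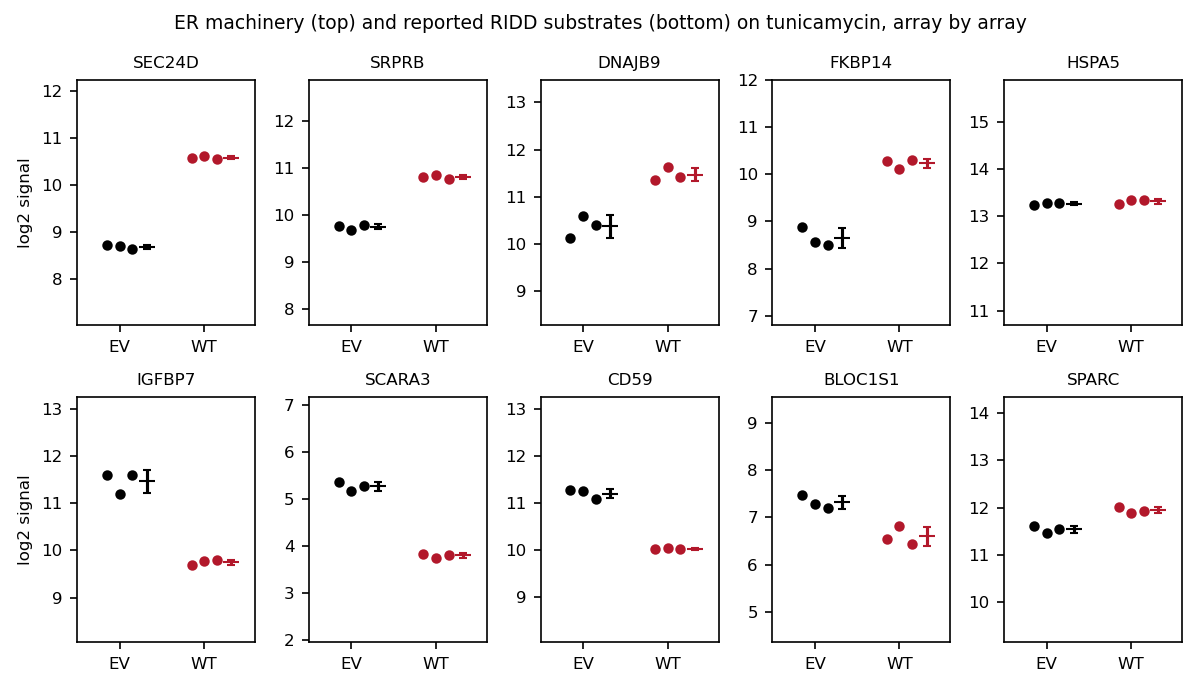
Each panel is a gene, with the log2 signal of the 3 EV and 3 WT arrays on tunicamycin as points; every panel spans the same number of log2 units. SEC24D lies at 8.65 to 8.72 in EV cells and 10.55 to 10.61 in WT cells, IGFBP7 at 11.19 to 11.61 and 9.69 to 9.79, and HSPA5 at 13.23 to 13.29 and 13.26 to 13.35.

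The chemokines that attract neutrophils through CXCR2 were higher in WT cells in 5 of 5 members tested, of 7 listed, with a median of 2.32. The other 2 listed were too dim on the arrays to be tested. A member dim on all arrays could not enter the count, so the share and median hold only for members bright enough to test. CXCL8, interleukin 8, was at 7.31, 7.62 and 7.12 in EV cells and 10.94, 10.52 and 10.03 in WT cells, a difference of 3.15 ± 0.34 (adjusted p = 7.11e-08). CXCL5 was near the floor of the array in EV cells, at 3.95, 4.08 and 3.85, and at 7.57, 6.74 and 6.01 in WT cells, a difference of 2.82 ± 0.30. CXCL3 was higher by 2.32 ± 0.36 and CXCL1 by 1.55 ± 0.24. CXCL2 was at 9.31, 11.10 and 10.18 in EV cells and 11.42, 11.96 and 11.57 in WT cells, a difference of 1.45 ± 0.43 (adjusted p = 0.0227). The CXCL2 groups did not overlap, but the highest EV array at 11.10 lay close to the lowest WT array at 11.42. CXCL2 missed the threshold without EV replicate 1 (1.01, adjusted p = 0.184), EV replicate 3 (adjusted p = 0.0619), WT replicate 2 (adjusted p = 0.101) or WT replicate 3 (adjusted p = 0.0511). By the methods' t-test, 1 of these 5 genes passed after adjustment over all genes.

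Other inflammatory genes split. Among cytokines 3 of 12 were higher and 1 lower. IL1B was at 6.59, 6.08 and 6.21 in EV cells and 9.34, 8.63 and 8.30 in WT cells, a difference of 2.47 ± 0.28. IL6 was higher by 1.5 ± 0.35 and IL1A by 1.36 ± 0.28, while TSLP, an epithelial cytokine, was lower by -0.81 ± 0.16. IL36RN, an antagonist of the interleukin 36 receptor, was at 4.13, 4.42 and 4.47 in EV cells and 8.19, 8.23 and 7.41 in WT cells, a difference of 3.60 ± 0.27. The NF-kappaB list had 4 higher and 2 lower of 19. The subunit gene NFKB1 was higher by 1.45 ± 0.19, the inhibitor NFKBIA by 0.93 ± 0.21, and TNFAIP2 was lower by -1.23 ± 0.25. PTGS2, the gene of cyclooxygenase 2, read 5.87, 6.35 and 4.82 in WT cells and 3.92, 4.56 and 4.47 in EV cells; its difference of 1.36 missed the threshold with the replicate block on the arrays compared (adjusted p = 0.0653) and without WT replicate 2 (adjusted p = 0.0556).

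Among the other chemokines CCL2, which attracts monocytes, was higher by 0.96 ± 0.20 and CXCL14 lower by -0.97 ± 0.27, and the other 10 of 12 did not pass. CXCL14 missed the threshold without WT replicate 2 (adjusted p = 0.0698). Interferon-stimulated genes had 4 members higher and 0 lower of 26, among them XAF1 at 1.41 ± 0.31 and OAS1 at 1.33 ± 0.26. HLA and antigen presentation had 6 higher and 1 lower of 18, led by the class II genes HLA-DQA1 at 1.71 ± 0.26 and HLA-DRA at 1.09 ± 0.19. HLA-DRA was at 8.30, 7.72 and 8.67 in EV cells and 9.24, 9.57 and 9.15 in WT cells, and missed the threshold with the replicate block on the arrays compared (adjusted p = 0.0653). Of complement genes and pentraxins, C3 at 1.63 ± 0.35 and PTX3 at 0.99 ± 0.26 were higher, and CFI, a protease that inactivates a C3 fragment, was lower by -1.58 ± 0.31, as was CD59. C3 missed the threshold with that block (adjusted p = 0.0605), and PTX3 without EV replicate 3 (adjusted p = 0.0963) or WT replicate 1 (adjusted p = 0.059).

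The single largest rise was in PI3, the gene of elafin, an inhibitor of neutrophil elastase. PI3 was at 4.28, 4.22 and 4.43 in EV cells and 9.71, 8.80 and 8.29 in WT cells, a difference of 4.62 ± 0.39 (adjusted p = 4.6e-10). Its list, the plasminogen system and serpins, had 4 higher and 1 lower of 12. Matrix proteases and their inhibitors had 4 higher and 4 lower of 19. The collagenase MMP1 was at 4.42, 4.13 and 4.46 in EV cells and 8.07, 7.10 and 6.40 in WT cells, a difference of 2.85 ± 0.37. The stromelysin MMP3 was higher by 2.62 ± 0.31, and of the inhibitors TIMP3 was higher by 2.17 ± 0.20 and TIMP2 lower by -1.45 ± 0.07. TIMP2 read 11.42, 11.36 and 11.37 in EV cells and 9.85, 9.98 and 9.94 in WT cells, so the groups were far apart.

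Among genes of the matrix itself more members were lower than higher. Matrix glycoproteins and proteoglycans had 12 members lower and 2 higher of 39, and collagens 6 lower and 3 higher of 28. With single arrays left out, 4 to 6 collagens were lower and 0 to 2 higher. EFEMP1, fibulin 3, was at 9.63, 9.56 and 9.73 in EV cells and 7.34, 7.72 and 7.47 in WT cells, a difference of -2.13 ± 0.18. COL13A1, a collagen of the cell membrane, was at 8.52, 8.05 and 8.31 in EV cells and spread from 4.51 to 6.39 in WT cells, a difference of -2.88 ± 0.38. THBS1, thrombospondin 1, was lower by -1.40 ± 0.39 but missed the threshold without EV replicate 3 (adjusted p = 0.0623) or WT replicate 2 (adjusted p = 0.107). MGP was lower by -1.08 ± 0.21 and FBLN2 by -1.09 ± 0.22. FBLN2 missed the threshold with the replicate block on the arrays compared (adjusted p = 0.0501).

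Integrins, the receptors for the matrix, had 6 members lower and 1 higher of 18. ITGB8, the subunit that activates latent TGF-beta, was at 8.38, 8.77 and 8.76 in EV cells and 6.07, 5.82 and 5.95 in WT cells, a difference of -2.69 ± 0.37. ITGA11 was lower by -1.45 ± 0.22, ITGA2 by -0.92 ± 0.16 and ITGB5 by -0.81 ± 0.16. Of cadherins, CDH11 was higher by 0.81 ± 0.18 and CDH18 and PCDH17 were lower by -0.90 and -0.77. With averaged probe sets CDH11 was at 0.23 (adjusted p = 0.139) and PCDH17 at -0.56 (adjusted p = 0.127).

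The IGF system had 11 members lower and 1 higher of 15, with a median of -0.57. IGFBP2, a binding protein secreted by glioma cells, was at 8.20, 7.66 and 8.29 in EV cells and 4.03, 3.98 and 3.93 in WT cells. The IGFBP2 difference of -4.07 ± 0.14 (adjusted p = 1.23e-18) was the largest fall of any gene tested. That SE pools the spread over all 14 groups, while the EV arrays alone ran from 7.66 to 8.29. IGFBP5 was lower by -2.0 ± 0.24, IGFBP7 by -1.71 ± 0.13 and IRS2, an adaptor of the receptor, by -0.81 ± 0.12. With the replicate block on the arrays compared 7 members were lower.

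Further genes with large differences had varied roles. The higher ones included HMGN3, a nucleosome-binding protein, at 2.94 ± 0.13, and the histone chaperone relative NAP1L5 at 2.59 ± 0.15. TNFRSF9, a co-stimulatory receptor of T cells, was higher by 2.43 ± 0.18. The lower ones included CHI3L1, a secreted marker of mesenchymal glioma, which was at 11.00, 10.29 and 11.21 in EV cells and 7.94, 7.47 and 7.17 in WT cells, a difference of -3.30 ± 0.34. FZD7, a Wnt receptor, was lower by -3.13 ± 0.25, MAN1C1, a mannosidase of the Golgi, by -3.05 ± 0.26, and RUNX1T1, a transcriptional co-repressor, by -2.88 ± 0.19. F2R, the thrombin receptor, was lower by -2.55 ± 0.29, SLC14A1, a urea transporter, by -2.73 ± 0.17, SYT13 by -2.82 ± 0.15 and the non-coding LINC01234 by -2.70 ± 0.36.

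Smaller shifts ran through several other lists. Growth factor genes that were higher included FGF2, which was at 9.41, 9.74 and 9.67 in EV cells and 10.80, 11.00 and 10.95 in WT cells, a difference of 1.31 ± 0.14. The list of angiogenic factors had 4 members higher and 2 lower of 26. The EGF receptor family and its ligands had 3 members higher and 1 lower of 11. The ligands NRG1 and EREG were higher by 0.84 and 0.72, and the ligand NRG2 was lower by -0.78. NRG2 missed the threshold in several other settings, such as averaged probe sets (-0.39, adjusted p = 0.162). HGF was lower by -1.42 ± 0.32, though the probe sets of HGF disagreed and averaged gave -0.39 (adjusted p = 0.27). Of NRF2 targets 5 were higher and 1 lower of 20, among them AKR1C1, AKR1C2 and AKR1C3 at 0.79, 0.69 and 0.80, which are close copies whose probe sets may share signal. Metallothioneins had 4 members lower and 0 higher of 7, with MT1X at -0.56 ± 0.09. With the replicate block on the arrays compared, MT1F at -0.47 (adjusted p = 0.0514), MT1E at -0.38 (adjusted p = 0.0688) and MT2A at -0.27 (adjusted p = 0.165) missed the threshold, and the groups of MT2A overlapped. MT2A also missed it without EV replicate 1 or 3 or WT replicate 2 or 3, with adjusted p from 0.0706 to 0.114. Of p53 targets ZMAT3, SESN1 and CCNG1 were lower by -0.66, -0.44 and -0.40, and 0 of 20 were higher. SESN1 (adjusted p = 0.0562) and CCNG1 (adjusted p = 0.0725) missed the threshold with that block. Cholesterol synthesis had 3 higher and 1 lower of 19, led by MSMO1 at 0.99 ± 0.11.

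Markers of the labelled cell type were mixed. Glioma and astrocyte markers had 4 members lower and 1 higher of 16, with NES at -1.51 ± 0.23 and SOX9 at -0.59 ± 0.12 beside CHI3L1. With averaged probe sets SOX9 was at -0.55 (adjusted p = 0.168). CD44 was lower by -0.27 (adjusted p = 0.026), but its probe sets disagreed and it missed the threshold with the replicate block on the arrays compared (adjusted p = 0.136) and without EV replicate 1 or 3 or WT replicate 2, with adjusted p from 0.082 to 0.203. Markers of macrophages, endothelial cells and oligodendrocytes had 0 members past the test of 8, 6 and 4, and their mean signal per array stayed between 4.56 and 4.76, 4.26 and 4.37, and 5.15 and 5.24. The signal of ACTB probe sets at the 3' end minus that at the 5' end, a sign of RNA quality, was 1.81 to 2.21 in EV arrays and 1.52 to 1.93 in WT arrays. Its part in the differences was not tested beyond the fit with it as a covariate. In that fit 2 of 150 named genes no longer had an adjusted p under 0.05.

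Mitosis genes moved with single arrays. Their mean signal was 8.03, 5.74 and 6.69 in EV arrays and 8.53, 7.17 and 7.21 in WT arrays, so the lines overlapped, replicate 1 was highest in each, and the WT array was the higher one at each of the 3 replicate numbers. The median difference over 30 members was 0.76, and 2 were higher: CCNA2 at 1.54 ± 0.47 and CENPE at 1.51 ± 0.42, with overlapping groups in each. The number higher was 18 without EV replicate 1, and 0 without EV replicate 2, EV replicate 3 or WT replicate 1. With the replicate number as a block it was 9 over all arrays and 4 on the arrays compared. DNA replication had 1 of 31 members higher, CDC6 at 1.16 ± 0.34, and a median of -0.24. As single arrays were left out, 0 to 3 of these were higher and 0 to 7 lower. CDC6 missed the threshold without EV replicate 2 (0.76, adjusted p = 0.222) or WT replicate 1 (0.87, adjusted p = 0.155).

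The same lines without tunicamycin, on other arrays, gave the difference that was there before the drug. Of 17191 genes 342 were called (1.99%), 185 higher in WT cells (1.08%) and 157 lower (0.913%). Of the genes called higher on tunicamycin, 87 were also called higher without it, which is 43.7% of the former and 47.0% of the latter. Of those called lower, 94 were shared, or 43.9% and 59.9%, and 0 genes were called in opposite directions. Across all genes, which are not independent, the log2 differences with and without the drug had a Pearson r of 0.628. PI3 differed by 5.13 without the drug and 4.62 with it, IGFBP2 by -4.50 and -4.07, and CXCL8 by 4.26 and 3.15.

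Among ER genes the difference without the drug had the same direction, read against 4.90% of all genes higher and 3.68% lower at an adjusted p under 0.05 there. The translocon list had 14 members higher and 0 lower of 24, transport to the Golgi 8 and 0 of 30, and chaperones 11 and 0 of 25. The targets of PERK and ATF4, of which 0 passed on the drug, had 10 higher and 1 lower of 38 without it. Whether these list counts differ between the conditions was not tested. Gene by gene, the WT minus EV difference was more negative on the drug for 3 of 38 targets of PERK and ATF4 and more positive for 0. The threshold was an adjusted p under 0.05, at which 0.355% of all genes were more negative and 0.145% more positive. The translocon list had 1 of 24 in each direction there, transport to the Golgi 2 of 30 more positive and chaperones 1 of 25 more negative. RIDD substrates had 4 lower and 0 higher of 18 without the drug.

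The difference of the differences was tested gene by gene, and 48 genes were called (0.279%), 14 with a more positive WT minus EV difference on the drug (0.0814%) and 34 with a more negative one (0.198%). With the replicate block on the arrays compared 24 were called. SEC24D was among them. It read 9.26, 9.25 and 9.26 in untreated EV cells and 9.86, 9.94 and 10.15 in untreated WT cells, and the gap was larger on the drug by 1.16. ACKR3, a scavenging receptor for CXCL12, was at 3.94 to 4.08 in untreated EV cells, 4.41 to 4.55 in untreated WT cells, 6.90 to 7.21 in EV cells on the drug and 8.98 to 9.32 in WT cells on the drug, an interaction of 1.64. ABCC2, a drug exporter, differed by 2.25 on the drug and 0.43 without it, and CALCB, a calcitonin gene-related peptide, by 1.98 and 0.31.

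Other genes were at low signal in both untreated lines and were higher on the drug in EV cells than in WT cells. CCN5, a matricellular protein, was at 3.81 to 4.24 in untreated EV cells and 3.94 to 4.14 in untreated WT cells; on the drug it read 6.75, 7.17 and 7.75 in EV cells and 3.98, 4.08 and 4.16 in WT cells, an interaction of -3.14. TUSC3, a subunit of the oligosaccharyltransferase that attaches the glycans tunicamycin withholds, was at 4.31 to 4.44 and 4.12 to 4.38 without the drug. With it TUSC3 read 7.29, 8.14 and 7.41 in EV cells and 5.50, 5.82 and 5.61 in WT cells, a difference of -1.97 ± 0.25. SLC16A4 and TMEM119 had the same order, with interactions of -2.11 and -1.86. ADA, adenosine deaminase, started from a higher signal and was at 8.96, 9.23 and 9.76 in EV cells and 6.70, 6.67 and 6.31 in WT cells on the drug, and at 6.32 to 6.96 and 5.73 to 6.85 without it.

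Of the 5 neutrophil-attracting chemokines tested, CXCL2 was the 1 called in the interaction. The interaction was negative in all 5, with a median of -1.11, and 4 had an unadjusted p under 0.05 by limma. CXCL2 was at 4.93, 6.56 and 5.56 in untreated EV cells, 10.20, 10.28 and 9.11 in untreated WT cells, and at 9.31 or more in every array on the drug. The WT minus EV difference of CXCL2 was 4.18 without the drug and 1.45 with it.

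**Figure D3:**
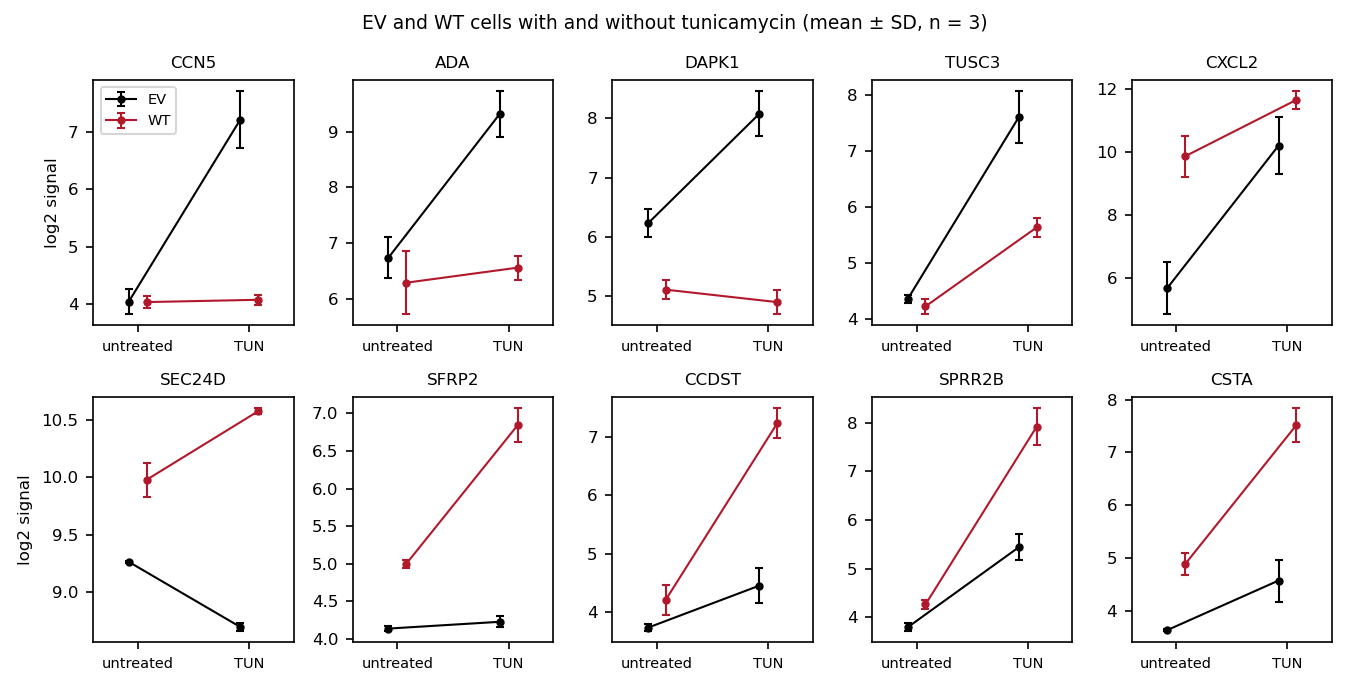
Each panel is a gene, with the mean log2 signal of EV cells (black) and WT cells (red), untreated and on tunicamycin, and bars for the SD (n = 3); each panel has its own range. CCN5 has a mean of 7.22 in EV cells on the drug and 4.07 in WT cells, SEC24D shows a wider gap between the lines on the drug, and CXCL2 a narrower one.

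WT cells were then set beside other lines on tunicamycin. These comparisons share the 3 WT arrays with the one against EV cells, so each is given by its own values. Against Q780*, a truncation that lacks the RNase domain, 289 genes were called (1.68%), 207 higher in WT cells (1.20%) and 82 lower (0.477%). Without WT replicate 1 the count was 179. At an adjusted p under 0.05, which 7.80% of genes passed, 3.82% higher and 3.98% lower, WT cells were higher for 11 of 24 translocon members, 14 of 30 of transport to the Golgi and 7 of 25 chaperones, with 0 lower in each. ER-associated degradation had 6 higher and 1 lower of 20, and the sensors and transcription factors 3 higher and 4 lower of 17. RIDD substrates were lower for 7 of 18 and higher for 1. Mitosis genes were higher for 29 of 30 with a median of 1.99, and the number ran from 10 to 29 as single arrays were left out.

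Against P336L, a variant in the luminal domain, 76 genes were called (0.442%), 4 higher in WT cells (0.0233%) and 72 lower (0.419%). The ER lists had 0 members past the test there, where 0.116% of genes were higher and 0.873% lower at an adjusted p under 0.05. IGFBP7 differed by -1.71 against EV cells, -1.76 against Q780* and -0.69 against P336L cells. SEC24D differed by 1.89, 1.15 and 0.11, and FKBP14 by 1.58, 1.36 and 0.11.

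The levels across all 7 lines on the drug place the EV comparison. SEC24D had a mean of 8.69 ± 0.0383 (SD, n = 3) in EV cells, 9.01 in IRE1-DN (n = 2), 9.43 in Q780*, 9.88 in S769F, 10.47 in P336L, 10.58 in WT and 10.61 in A414T cells. The last 3 SEC24D means lay within their SDs of up to 0.188 of each other. FKBP14 had the same low lines, between 8.65 and 8.87 in EV, IRE1-DN and Q780* cells, was 9.30 in S769F cells, and lay between 10.11 and 10.23 in the other 3 lines. IGFBP7 was between 11.47 and 11.80 in EV, S769F, Q780* and IRE1-DN cells, 10.44 in P336L, 9.75 in WT and 9.16 in A414T cells. BLOC1S1 was between 7.17 and 7.36 in the first 4 of these lines and between 6.60 and 6.94 in the last 3, which is a narrow gap beside its SDs of up to 0.282.

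Other large differences had another order, in which EV cells stood alone. IGFBP2 had a mean of 8.05 ± 0.341 in EV cells and between 3.73 and 4.15 in each of the other 6 lines, IRE1-DN and Q780* included. CCN5 was 7.22 in EV cells and between 4.07 and 4.87 elsewhere. NAP1L5 was 6.17 in EV cells and between 7.73 and 8.75 elsewhere, and HMGN3 was 3.66 in EV cells and between 6.60 and 9.81 elsewhere. SCARA3, of the RIDD list, was 5.27 in EV cells and between 3.63 and 4.49 elsewhere, also in the Q780* and IRE1-DN lines. PI3 had a mean of 8.93 ± 0.723 in WT and 7.63 ± 1.24 in P336L cells and between 4.09 and 4.64 in the other 5 lines, A414T included. CXCL8 was 10.50 in WT, 10.03 in P336L, 9.78 in S769F and 9.48 in Q780* cells, and 7.91, 7.35 and 6.76 in IRE1-DN, EV and A414T cells. With SDs of 0.251 to 1.0, neighbours within each of these CXCL8 runs lay close to or within their spread. Each line is a single population or clone, so a difference between lines and a difference between IRE1 forms cannot be told apart.

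**Figure D4:**
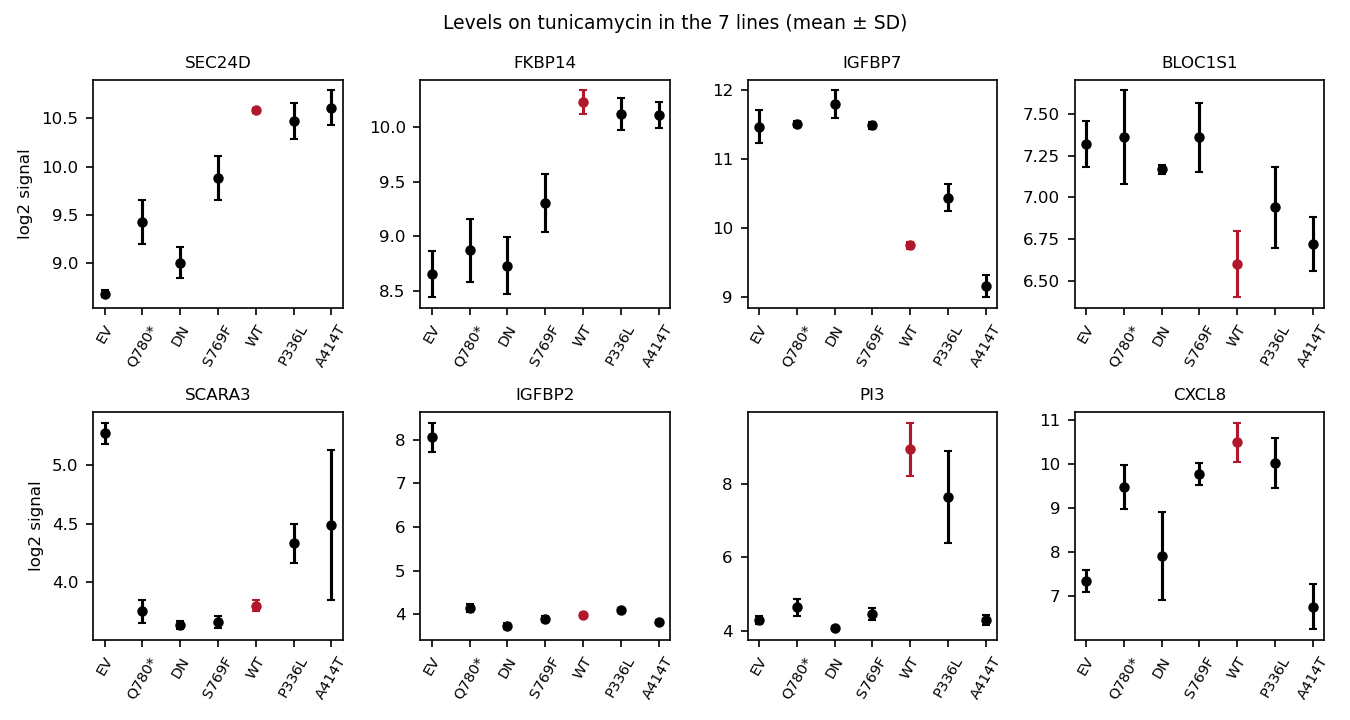
Each panel is a gene, with the mean log2 signal on tunicamycin in each of the 7 lines and bars for the SD (n = 3, and n = 2 for IRE1-DN), WT cells in red and a range of its own. SEC24D is at 8.69 in EV and 10.58 in WT cells, IGFBP7 is at 11.47 in EV and 9.75 in WT cells, and IGFBP2 is at 8.05 in EV cells and at most 4.15 in the other 6 lines.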

How the data were processed

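Total RNA (6 µg per sample) was hybridised to Affymetrix arrays, 40 in 14 groups. The authors deposited log2 signals per probe set from RMA, which corrects background, applies quantile normalization and summarises probes; its version is not given in the sources used. RMA shrinks differences at dim and very bright signals. Array values carry no read depth, so precision rests on the arrays. Each mean compared comes from 3 arrays, and the spread of a gene is pooled over all 40.

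Of 54715 probe sets, 40914 had 1 gene symbol in the platform annotation, 864 had several and 12835 none, and 102 controls were left out. Symbols were updated through Entrez ID for 40858. Each of 19774 genes was read from its brightest probe set on average (median 2 probe sets a gene). A filter kept 17191 genes that reached the 40th percentile of signal on 2 or more arrays.

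One limma model (version 3.58.1, R 4.3.3) with a mean per group took in all 40 arrays, with 26 residual degrees of freedom plus 3.436 from the prior. It had no replicate block, and values and counts come from this fit unless another setting is named. The fitting script was tested on simulated data. Comparisons were WT against EV cells with and without tunicamycin, the difference between these, and WT against Q780* and P336L cells on tunicamycin. Calls needed a Benjamini-Hochberg adjusted p under 0.05 and 2-fold; list members were counted at the adjusted p alone. Same-numbered WT and EV arrays on tunicamycin deviated together (Pearson r 0.346, 0.129 and 0.147 over genes), as did untreated ones (0.325, 0.344 and 0.627). The numbers may therefore pair the arrays, which the labels do not state. Blocked fits were run beside the main fit, whose p-values take no account of such pairing. Arrays of a group correlated at 0.9849 to 0.992 for EV and WT cells on tunicamycin and at 0.9762 to 0.9933 over the 14 groups.

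The gene lists, comparisons and rules were chosen with earlier results of these data known. Named genes were the 15 highest and 15 lowest called, the 4 largest past the test in each of 41 lists, 5 checks (ERN1, XBP1, DNAJB9, HSPA5, DDIT3), the 8 highest and 8 lowest interactions, and the 6 highest and 6 lowest called against both EV and Q780* cells, 150 in all; others are said to be named after their values were seen, or stand in a list of promoter matches or of list members. Promoters were read from RefSeq (GRCh38.p14). Alternatives covered the filter, probe set rule, scaling, arrays fitted, fold minimum, block, the methods' t-test, an RNA quality covariate and leaving out each array. The study's methods name t-tests, paired or not, and ANOVA for its data and give no test for the arrays. The t-test run here was unpaired, with equal variances. Figures used matplotlib 3.10.9 under Python 3.11.15.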

Additional observations from a re-analysis of the deposited data

Results flagged for a closer look

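For 21 named genes the WT minus EV difference on tunicamycin differed from that without it, by the interaction term of the limma fit; the values are the difference of the 2 log2 differences. It was more positive on the drug for CCDST at 2.31, SPRR2B at 2.01, KCNE4 at 1.86, ABCC2 at 1.82, SFRP2 at 1.75, CSTA at 1.71, CALCB at 1.67, ACKR3 at 1.64, TNFRSF9 at 1.48 and SEC24D at 1.16. It was more negative for CCN5 at -3.14, CXCL2 at -2.73, ADA at -2.30, SLC16A4 at -2.11, COL15A1 at -2.08, DAPK1 at -2.06, TMEM119 at -1.86, TUSC3 at -1.84, CDH11 at -1.31, AKR1C2 at -1.09 and IRS2 at -1.0.

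The more negative values did not come from 1 order of levels. CDH11, a cadherin, was at 7.05, 7.09 and 7.15 in untreated WT cells and 4.57 to 5.41 in untreated EV cells, and at 4.93 to 5.29 and 4.21 to 4.34 on the drug. AKR1C2, a reductase, was at 8.47 to 9.02 in untreated EV cells and 10.43 to 10.56 in untreated WT cells, and at 10.83 to 11.12 and 11.62 to 11.76 on the drug. COL15A1, a collagen of basement membranes, was higher in WT cells by 0.57 without the drug (adjusted p = 0.29) and lower by -1.51 with it. DAPK1, a death-associated kinase, was at 6.03 to 6.49 in untreated EV cells, 4.94 to 5.26 in untreated WT cells, and 7.64 to 8.33 and 4.68 to 5.07 on the drug.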

How the results depend on the processing

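The 413 calls of WT against EV cells on tunicamycin became 1159 at a 1.5-fold minimum, 2089 with none, 275 when a gene's probe sets were averaged (155 higher, 120 lower) and 197 by the methods' t-test adjusted over all genes. The 48 interactions became 80, 86 and 30 under the first 3 of these, 26 on only the arrays compared and 24 with the replicate block on those arrays. The 342 calls without the drug became 911, 1475, 220 and 93 under the same 4 settings. Against Q780* the 289 calls became 729 and 1341 at the lower fold minima, 4 by the adjusted t-test and 179 without WT_TUN replicate 1. Against P336L the 76 calls became 137, 170, 49 and 16 under the 4 settings.

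Leaving out single arrays gave 396 to 465 calls against EV cells on the drug, 37 to 71 interactions, 322 to 408 calls without the drug, 179 to 330 against Q780* and 74 to 105 against P336L. With the replicate block over all arrays the counts were 426, 60, 342, 294 and 80 in that order, and on the arrays compared 408, 24, 328, 243 and 54. The Q780* pairs correlated at 0.207, 0.067 and 0.208 and the P336L pairs at 0.28, 0.136 and 0.262. These values overlap those of the WT and EV pairs on tunicamycin. Whether the numbers pair the EV, Q780* and P336L arrays with WT arrays was left unsettled, so counts are given with and without the block.

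Of 150 named genes, 2 turned sign with averaged probe sets, ERN1 to 0.34 (adjusted p = 0.201) and HSPA5 to -0.00 (adjusted p = 0.999). With averaged probe sets 13 no longer had an adjusted p under 0.05. Genes counted as lost below are lost by that threshold alone, whatever their fold. The adjusted t-test lost 83, the fit of only the arrays compared 20, the block on those arrays 19, and leaving out an array 27 in at least 1 case. Median centring, quantile normalization again and the RNA quality covariate lost 2 each. The block over all arrays, the filters and the robust eBayes lost 0, though the stricter filter left 149 of the named genes to test. Signals near the array's floor, such as CXCL5 in EV cells, bound differences from below. Very bright signals, such as HSPA5, may understate differences.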
